A study of Mus musculus with 18 samples.

Results

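The genes described here are 4 members of the SLCO family of organic anion transporters, Slco2b1, Slco3a1, Slco4a1 and Slco2a1, out of 21734 genes in the count table and 14 SLCO genes found in it. They were chosen by gene name, and Slco2b1 was selected as one of the strongest falls with LPS, so its LPS response is given as a description in each genotype, with no test. The 18 RNA-seq libraries came from bone marrow-derived macrophages (BMDMs) of mice, in 6 groups of 3 biological replicates. By the labels, all mice were 129/B6 mix and 6 to 7 months old. Their marrow was grown for 8 to 9 days in medium with 10 ng/ml M-CSF, the growth factor that drives macrophage differentiation. The genotypes were wild-type (WT), miR-146 knock-out (KO), which lacks the microRNA miR-146a, and 3′F, in which the seed of miR-146a is kept and part of its 3′ region is exchanged with sequence of the opposite hairpin arm. Both altered alleles were carried in the germline and so were not limited to macrophages. Resting cultures received fresh medium and stimulated cultures received fresh medium with 1 ng/ml LPS, and all were harvested after 16 h.

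SLCO proteins, also called OATPs, sit in the plasma membrane and carry amphipathic organic anions into cells, among them steroid sulfates, bile salts, thyroid hormones, prostaglandins and many drugs. Slco2b1 encodes OATP2B1, a carrier of estrone sulfate and other steroid conjugates, and Slco4a1 encodes OATP4A1, which carries thyroid hormone. Slco3a1 encodes OATP3A1, which carries prostaglandins and thyroxine, and Slco2a1 encodes the prostaglandin transporter, which clears prostaglandin E2 from outside the cell.

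The start regions of the members are shown because Slco2b1 and Slco4a1 were the members lower with LPS, and the microRNA is shown because the genotypes differ in it. Sequences come from RefSeq on GRCm38.p6, where 3 of the 4 members had start windows of 250 bases before to 50 bases after a start. Slco2b1 had 3 windows, Slco4a1 2 and Slco2a1 1, and the first of Slco2b1 and of Slco4a1 are printed. Capitals in the Slco2b1 window mark a PU.1 word, GAGGAAGT, and an AP-1 word, TGANTCA, which share 1 base. Capitals in the Slco4a1 window mark 4 GC boxes, GGGCGG, read on the opposite strand, and those in the microRNA mark its seed, bases 2 to 8.
Slco2b1, chr7:99711291-99711590, minus strand: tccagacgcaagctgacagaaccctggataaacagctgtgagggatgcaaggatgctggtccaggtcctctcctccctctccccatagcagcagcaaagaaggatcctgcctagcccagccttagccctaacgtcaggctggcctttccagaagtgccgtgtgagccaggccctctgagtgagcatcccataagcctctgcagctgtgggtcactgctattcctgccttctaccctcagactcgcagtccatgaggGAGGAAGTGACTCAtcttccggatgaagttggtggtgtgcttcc
Slco4a1, chr2:180455995-180456294, plus strand: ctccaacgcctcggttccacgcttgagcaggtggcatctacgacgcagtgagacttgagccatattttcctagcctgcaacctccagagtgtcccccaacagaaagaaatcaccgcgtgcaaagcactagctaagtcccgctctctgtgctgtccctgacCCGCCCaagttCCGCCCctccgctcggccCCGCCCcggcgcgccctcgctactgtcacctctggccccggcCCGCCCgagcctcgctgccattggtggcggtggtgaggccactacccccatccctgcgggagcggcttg
miR-146a-5p, chr11:43374435-43374456, minus strand: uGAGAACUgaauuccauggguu

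The PU.1 word began 6 bases and the AP-1 word 13 bases after the annotated start of Slco2b1. On both strands, the PU.1 word was found in 3.2% of 32851 start windows and the AP-1 word in 7.81%, and neither was in the first Slco4a1 window. GC boxes, the GC-rich words bound by Sp factors, were in 35.7% of windows. The first Slco4a1 window was 65.3% G and C and the Slco2b1 window 57.0%. NF-kB words stood in 50.8% of windows, and in the Slco4a1 window 1 of them overlapped a GC box. E-box, C/EBP and ISRE words were not in any window of the members. A match is a description of these letters and not a bound site.

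Matches to the seed of miR-146a were looked for in the longest annotated 3′ UTR of each member, with the matched bases in capitals. They are shown because KO cells lack the microRNA while the seed is kept in 3′F.
Slco3a1, 8mer: caagcccccagAGTTCTCAaagagatgctg
Slco2b1, 7mer: catatctcaccAGTTCTCtttatgaaaaa
Slco2a1, 7mer: aggcagcctctGTTCTCAccagtctctca

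A 7mer or 8mer match was present in 3 of the 4 members, beside 19.2% of 21173 genes, and an 8mer alone in 4.35% of genes. Slco4a1 had none in a 3′ UTR of 623 bases, beside 3′ UTRs of 2432 bases in Slco3a1, 2237 in Slco2b1 and 4572 in Slco2a1. The shares over all genes were not matched for length. On GRCm38, Slco2b1 spans chr7:99657804-99711340 and Slco3a1 chr7:74275419-74554780, both on the minus strand. Slco4a1 spans chr2:180456245-180474867 and Slco2a1 chr9:102988712-103096002, both on the plus strand. Genes on the opposite strand overlap Slco2b1, Slco3a1 and Slco2a1, and the counting used strand. Gm25842, a non-coding RNA, overlaps Slco2a1 on the same strand, where strand does not separate their reads.

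Depth ran from 4071084 to 19818043 counts per library. Resting KO replicate 3 lay on the LPS side of the first principal component, which held 59.4% of the variance, and resting 3′F replicate 3 had the lowest depth and stood apart on the second. Acod1, an LPS-induced enzyme, was at 203, 142 and 1139 CPM in resting KO replicates 1 to 3, and all 8 LPS check genes rose with LPS in each genotype. CPM are counts per 1000000 of scaled library size. The 7 macrophage markers in the table summed to 31014 to 86364 CPM, and Lyz2 reached at least 26461 CPM in every library. Of other cell types, summed markers reached 67.0 CPM for neutrophils, 136 for endothelial cells, 592 for megakaryocytes and platelets, nearly all Pf4, 11.5 for T and NK cells, 5.29 for stromal cells, 3.98 for dendritic cells, 1.64 for mast cells and basophils and 0.702 for erythroid cells. Ly6g and Cd3e were at or under 3 counts in all 18 libraries. The endothelial sum, mostly Vwf and Kdr, was 83.8 to 136 CPM in resting libraries and 60.1 to 80.0 with LPS, with Tek at or under 3 counts in 17 of 18 libraries. Of 4 endothelial markers tested, 1 was called lower with LPS and 0 higher in each genotype. Their median log2 difference was above 0, at 0.64 in WT, 0.43 in KO and 0.02 in 3′F, so the sum does not stand for every marker. Of all genes, 12.3% were called lower in WT, 12.6% in KO and 14% in 3′F. The stromal sum was 0.394 to 3.29 CPM at rest and 2.65 to 5.29 with LPS. Of 6 stromal markers 2 passed the filter on low counts, Dcn and Pdgfrb, at or under 3 counts in 7 and 5 of 18 libraries. Both were called higher with LPS in every genotype, by 1.44 to 3.46 on the log2 scale. Of all genes, 16.3% were called higher in WT, 14.3% in KO and 17.2% in 3′F. Markers this low may have passed the filter through the LPS libraries, so their calls are a description. Camp, 1 of 6 neutrophil markers tested, was called higher with LPS in WT and KO. The part of these cells in the results below was not tested.

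**Figure D1:**
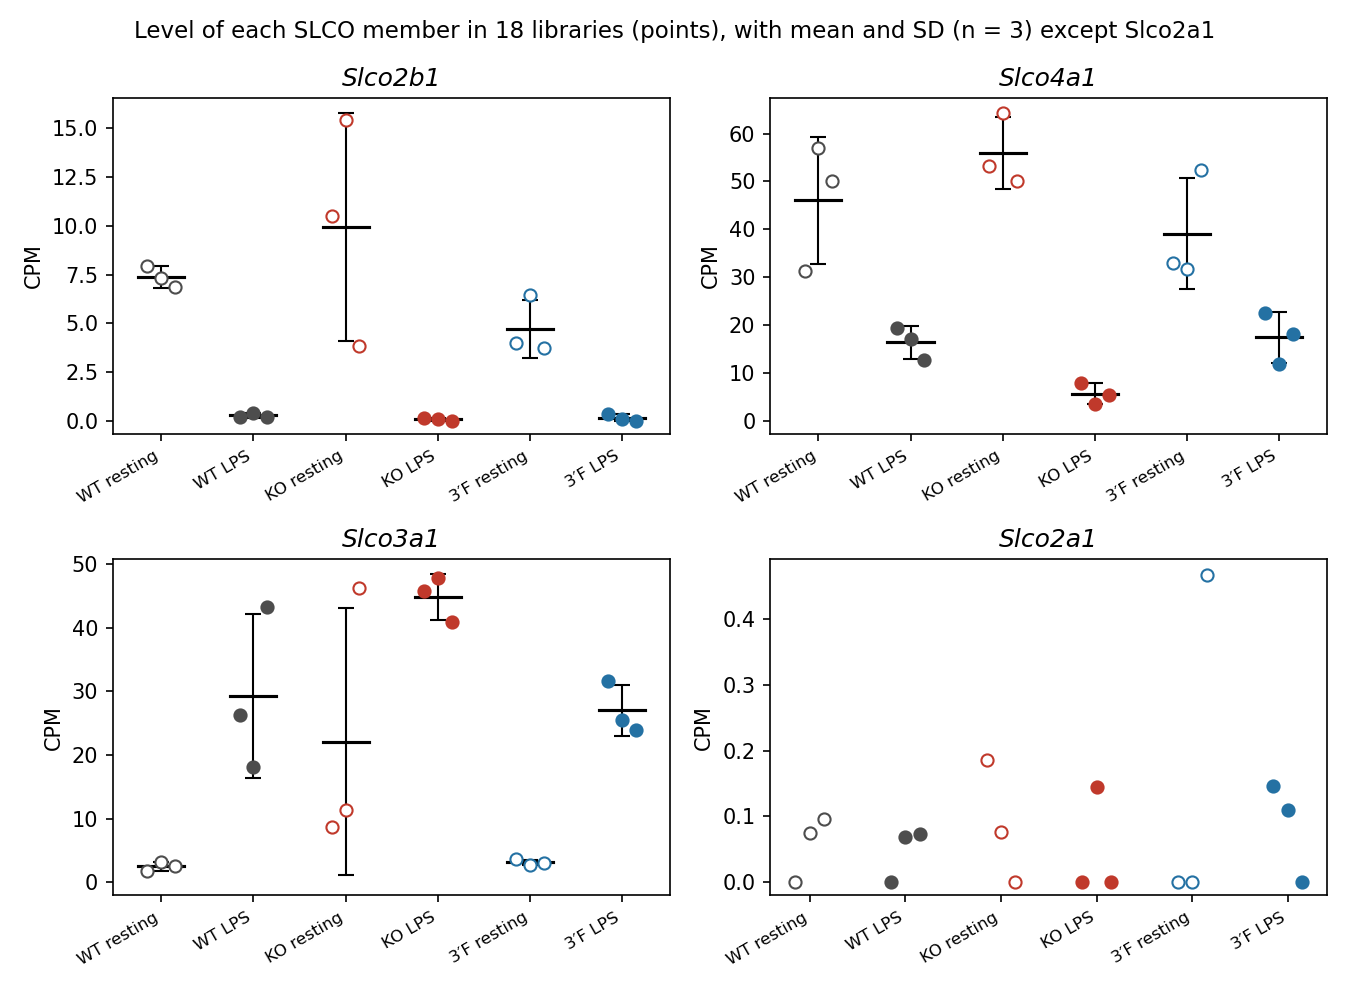
CPM of each member in the 18 libraries, grouped by genotype and state, with open points for resting and filled points for LPS libraries. Bars are the mean and SD of 3 libraries, left out for Slco2a1, whose highest level was 0.468 CPM. Slco2b1 and Slco4a1 sit lower with LPS in every genotype, and resting KO replicate 3 sits with the LPS libraries for Slco3a1.

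Slco2b1 was at 7.95, 7.30 and 6.87 CPM in resting WT replicates 1 to 3 and at 0.209, 0.409 and 0.220 CPM with LPS. The WT groups did not overlap, and the summed counts were 289 resting and 12 with LPS. The fitted log2 difference was −4.67, the 5th lowest of 11357 genes tested. Just above and below it in that order stood A930018M24Rik at −4.69 and Gpr34 at −4.52. Falls with LPS of this kind chose the gene.

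In KO, Slco2b1 was at 10.5, 15.4 and 3.82 CPM resting and at 0.138, 0.0724 and 0 CPM with LPS, that is 2, 1 and 0 counts. The fitted log2 difference was −6.97 ± 0.70 (SE), the 2nd lowest of all genes tested. With so few counts the fitted value depends on the prior count, and the ratio of summed counts, resting over LPS, was 150 with a 95% interval of 51.0 to 731. That interval, like the others from counts here, covers counting error only. In 3′F, Slco2b1 was at 4.01, 6.43 and 3.75 CPM resting and at 0.366, 0.110 and 0 CPM with LPS. The fitted difference was −4.72 ± 0.65, the 6th lowest. The groups did not overlap in either genotype. In bulk RNA, fewer cells carrying a transcript and less transcript per cell cannot be told apart.

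Slco4a1 was at 31.3, 56.9 and 50.1 CPM in resting WT and at 19.3, 17.1 and 12.7 CPM with LPS. The groups did not overlap, and it fell by 1.49 ± 0.29 (SE) on the log2 scale with an adjusted p of 0.00137. In KO it was at 53.2, 64.4 and 50.2 CPM resting and at 7.92, 3.55 and 5.42 CPM with LPS. That fall was 3.31 ± 0.32 with an adjusted p of 1.64e-06, the 43rd lowest of all genes. In 3′F it was at 33.0, 31.8 and 52.4 CPM resting and at 22.5, 11.8 and 18.1 CPM with LPS. It fell by 1.14 ± 0.30 there, with an adjusted p of 0.00842. Leaving out 3′F LPS replicate 2 gave a fall of 0.92 with an adjusted p of 0.0501, and the adjusted p ran from 0.000712 to 0.0501 over the 14 alternatives. Of all genes, 12.3% were called lower in WT, 12.6% in KO and 14% in 3′F.

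Slco3a1 went the other way. It was at 1.77, 3.16 and 2.61 CPM in resting WT and at 26.2, 18.1 and 43.3 CPM with LPS, with no overlap. It rose by 3.54 ± 0.54 on the log2 scale with an adjusted p of 0.000155. In 3′F it was at 3.56, 2.72 and 3.04 CPM resting and at 31.6, 25.5 and 24.0 CPM with LPS, also with no overlap. The rise in 3′F was 3.11 ± 0.54 with an adjusted p of 0.000434. In KO it was at 8.59, 11.3 and 46.3 CPM resting and at 45.7, 47.9 and 40.9 CPM with LPS, and the groups overlapped. Resting KO replicate 3 was as high as the stimulated KO libraries, and the fitted difference of 1.05 ± 0.45 had an adjusted p of 0.0959. Without that library it was 2.17 and the adjusted p 2.84e-05. With the replicate number as a block it was 1.43 with an adjusted p of 0.0328, and over the 14 alternatives the adjusted p ran from 5.14e-07 to 0.32. Of Slco3a1 and Slco4a1, 2 of 2 were called in WT, beside 28.5% of all genes, 1 of 2 in KO, beside 26.9%, and 2 of 2 in 3′F, beside 31.2%. Genes called higher made up 16.3% in WT, 14.3% in KO and 17.2% in 3′F.

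**Figure D2:**
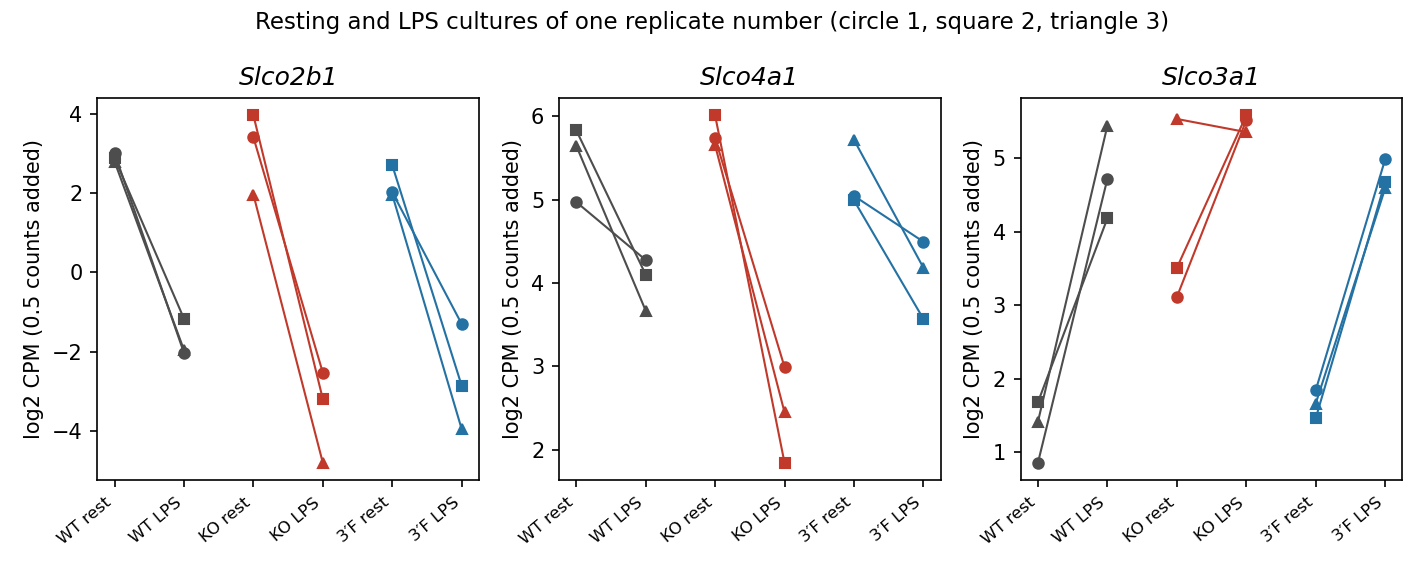
Log2 CPM, with 0.5 counts added, in resting and LPS cultures of the same replicate number, joined by lines, for the 3 members that passed the filter. Slco4a1 was lower with LPS in 9 of 9 pairs, and Slco3a1 was higher in 8 of 9, the exception being KO replicate 3, at −0.18. Slco2b1 was lower in 9 of 9 pairs, which is a description only, since falls with LPS chose it.

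Slco2a1 was listed at 16 counts in all 18 libraries together, with no library above 3 counts. It did not pass the filter on low counts, and a difference between groups was not detectable at this depth. A count of 3 is worth 0.164 to 0.702 CPM in these libraries. Of the 10 other SLCO genes in the table only Slco5a1 passed the filter, with 1 to 32 counts per library, and in 3′F it was at 0.847, 0.521 and 4.45 CPM resting and at 0.220, 0.383 and 0.128 CPM with LPS. It fell there by 2.41 ± 0.87 with an adjusted p of 0.0432, but the resting level rests on replicate 3, the shallow library, without which the difference was −1.36 and the adjusted p 0.18. Leaving out any of the 3 LPS libraries also ended the call, at adjusted p values of 0.0743 to 0.112, as did the 2 groups alone at 0.113 and limma-voom at 0.126. Its difference with LPS was −0.69 in WT, with an adjusted p of 0.513, and −2.34 in KO, with an adjusted p of 0.0886. The 9 others held at most 13 counts over all libraries.

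Levels of different genes are compared here per kb of exon. In resting WT, Slco4a1 was highest at 14.3 ± 4.10 CPM per kb, above Slco2b1 at 1.24 ± 0.09 and Slco3a1 at 0.324 ± 0.090 (SD, n = 3). In KO with LPS the order was Slco3a1 at 5.78 ± 0.46, Slco4a1 at 1.74 ± 0.68 and Slco2b1 at 0.012 ± 0.012 (SD, n = 3). Slco3a1 and Slco4a1 stood at 3.77 ± 1.66 and 5.07 ± 1.05 in WT with LPS, and at 3.48 ± 0.52 and 5.41 ± 1.66 in 3′F with LPS. In both groups the libraries of these 2 genes overlapped. Resting KO had Slco4a1 at 17.3 ± 2.31, Slco3a1 at 2.84 ± 2.71 and Slco2b1 at 1.67 ± 0.98, and resting 3′F had them at 12.1 ± 3.59, 0.401 ± 0.054 and 0.794 ± 0.249 (SD, n = 3), so that, among the resting groups, the libraries of Slco3a1 and Slco2b1 overlapped in KO and not in WT or 3′F. Over all libraries Slco4a1 was at the 52.4th percentile of genes tested, Slco3a1 at the 24.9th and Slco2b1 at the 9.37th.

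The log2 ratio of Slco3a1 to Slco4a1 per kb was −5.46 ± 0.06 in resting WT, −0.50 ± 0.89 in WT with LPS, −3.02 ± 1.42 in resting KO, 1.80 ± 0.63 in KO with LPS, −4.89 ± 0.45 in resting 3′F and −0.60 ± 0.38 in 3′F with LPS (SD, n = 3). Slco3a1 was above Slco4a1 in 3 of 3 KO libraries with LPS, in 1 of 3 WT libraries and in 0 of 3 3′F libraries. The ratio did not overlap between resting and LPS libraries in any genotype, nor between KO and the other 2 genotypes in either state, nor between resting 3′F and resting WT. Each such difference had a two-sided exact permutation p of 0.1, the smallest that 3 libraries against 3 allow, and 0.113 when adjusted over 9 comparisons, so no difference of the ratio could reach p under 0.05.

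**Figure D3:**
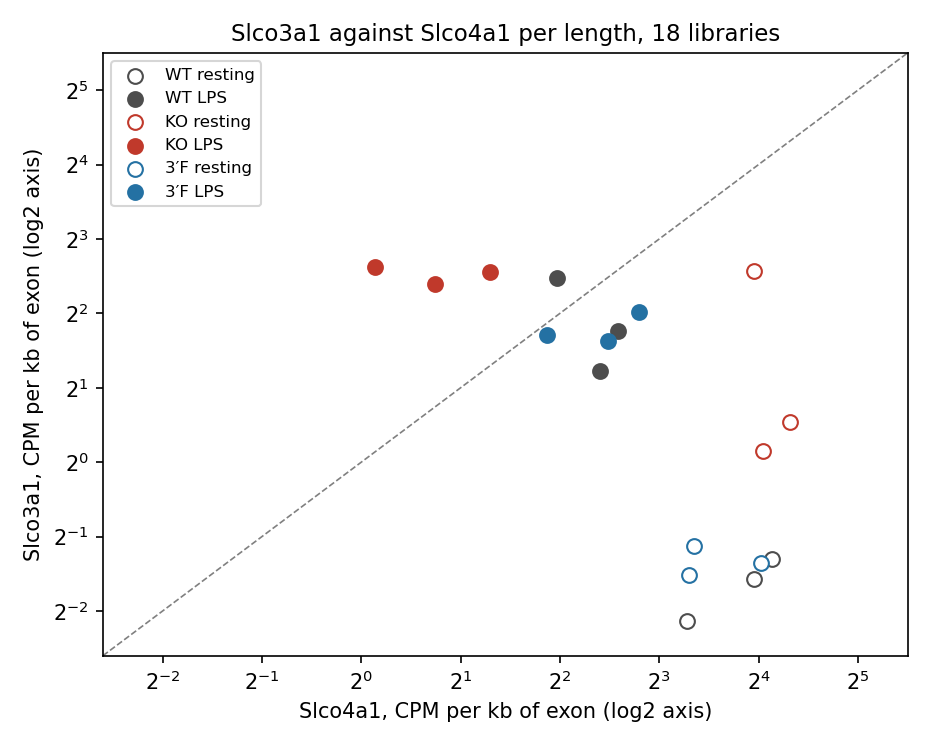
Slco3a1 against Slco4a1 in CPM per kb of exon, both on log2 axes, for 18 libraries, with open points for resting and filled points for LPS libraries. The dashed line marks equal levels. The 3 KO LPS libraries lie above it, at ratios of 2.40 to 5.62, and all resting libraries lie below it.

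Between genotypes, Slco3a1 differed at rest, with KO above WT by 3.11 ± 0.54 on the log2 scale (adjusted p = 0.003) and no overlap of libraries. Resting KO replicate 3 carries part of the value, which was 1.99 without it. In a fit of the 2 groups alone the adjusted p was 0.0593, the highest of 14 alternatives that ran from 1.57e-08. Of the 3 members 1 was called, beside 9.4% of all genes. Slco2b1 differed by 0.44 with a 95% interval of −0.39 to 1.27, and Slco4a1 by 0.28 with an interval of −0.32 to 0.88. Each comparison of genotypes for Slco2b1 shares libraries with the LPS responses that chose it.

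Other genes moved with Slco3a1 in resting KO. Of the 8 LPS check genes 4 were called higher than in WT, Cxcl10 by 4.73, Acod1 by 3.51, Saa3 by 3.20 and Ptges by 1.23. The same number were called against 3′F, where 12.9% of all genes were called, beside 9.4% against WT. Among the resting KO libraries each of these 4 genes was highest in replicate 3. Cxcl10 was at 24.0, 12.2 and 196 CPM in replicates 1 to 3, Saa3 at 145, 163 and 1344, and Ptges at 14.2, 15.3 and 32.9. Of the other check genes, not called here, Nos2 and Marco were also highest in replicate 3. Il1b and Cd14 were lowest in it, at 19.7, 11.2 and 4.49 CPM and at 1267, 981 and 901 CPM. Of 7 macrophage markers 2 were called higher than in WT, Fcgr1 by 1.79 and Csf1r by 0.81, beside the same 9.4%. Macrophage markers, mostly Lyz2, summed to 59456 to 61563 CPM in resting KO, 31014 to 46984 in resting WT and 41756 to 61402 in resting 3′F. The sums of KO and WT did not overlap, while Lyz2 itself was not called. With LPS the sum was 69296 to 86364 CPM in KO, above the 43891 to 58035 of WT and the 48396 to 58761 of 3′F. Their part in the differences of Slco3a1 and Slco4a1 was not tested.

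With LPS, Slco4a1 had a log2 difference of −1.54 ± 0.32 between KO and WT, at an adjusted p of 0.0111, and the libraries did not overlap. It was the only member called of 3, beside 4.79% of all genes, and without KO LPS replicate 2 it was −1.30 at an adjusted p of 0.065, the highest of 14 alternatives that ran from 6.74e-05. Slco3a1 differed by 0.62 with an interval of −0.32 to 1.55. Slco2b1, with 3 counts in KO and 12 in WT, differed by −1.86 with an interval of −4.29 to 0.57. Its libraries did not overlap, at counts near the floor.

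In 3′F no member was called against WT, with edgeR, DESeq2 or limma-voom. In the main edgeR fit the smallest unadjusted p of the members was 0.159, for Slco2b1 at rest. Its resting libraries did not overlap, at 3.75 to 6.43 CPM in 3′F and 6.87 to 7.95 CPM in WT. Over 14 alternatives the adjusted p of Slco4a1 at rest went down to 0.165, with differences from −0.63 to −0.079. At rest 0% of all genes were called by edgeR, with 557 genes at an unadjusted p under 0.05, and DESeq2 and limma-voom called 2 each. With LPS 0.00881% were called. The interval for Slco4a1 was −0.87 to 0.35 at rest and −0.55 to 0.72 with LPS. That for Slco3a1 was −0.96 to 1.61 at rest and −1.05 to 0.83 with LPS, and that for Slco2b1 was −1.47 to 0.26 and −2.67 to 1.37. Intervals of this width leave differences of more than 1.5 on the log2 scale possible for Slco3a1 at rest and for Slco2b1 with LPS.

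Against 3′F, resting KO had Slco3a1 higher by 2.78 ± 0.54 with an adjusted p of 0.0063 and no overlap. In a fit of those 2 groups alone the adjusted p was 0.146, the highest of 14 alternatives that ran from 4.9e-07, and without KO replicate 3 the difference was 1.66. Slco2b1 was higher by 1.05 ± 0.41 with an adjusted p of 0.0938, the groups overlapped, and the adjusted p ran from 0.0019 to 0.356 over the alternatives. The libraries compared are part of the LPS responses that chose Slco2b1, so its values here are a description. Of the 3 members 1 was called, beside 12.9% of genes. With LPS, Slco4a1 had a log2 difference of −1.62 ± 0.32 between KO and 3′F, at an adjusted p of 0.00959 and with no overlap, and it was the only member called, beside 3.88% of genes. Leaving out KO LPS replicate 2 or 3′F LPS replicate 1 gave adjusted p values of 0.0601 and 0.0553, in a range from 2.61e-05 to 0.0601 over 14 alternatives. Slco3a1 was not called with LPS, at 0.73 with an interval of −0.21 to 1.67 and an adjusted p of 0.459, though its libraries did not overlap. Its adjusted p ran from 0.00304 to 0.745 over 14 alternatives, of which 2 called it. Slco2b1 differed by −1.21 with an interval of −3.94 to 1.53.

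**Figure D4:**
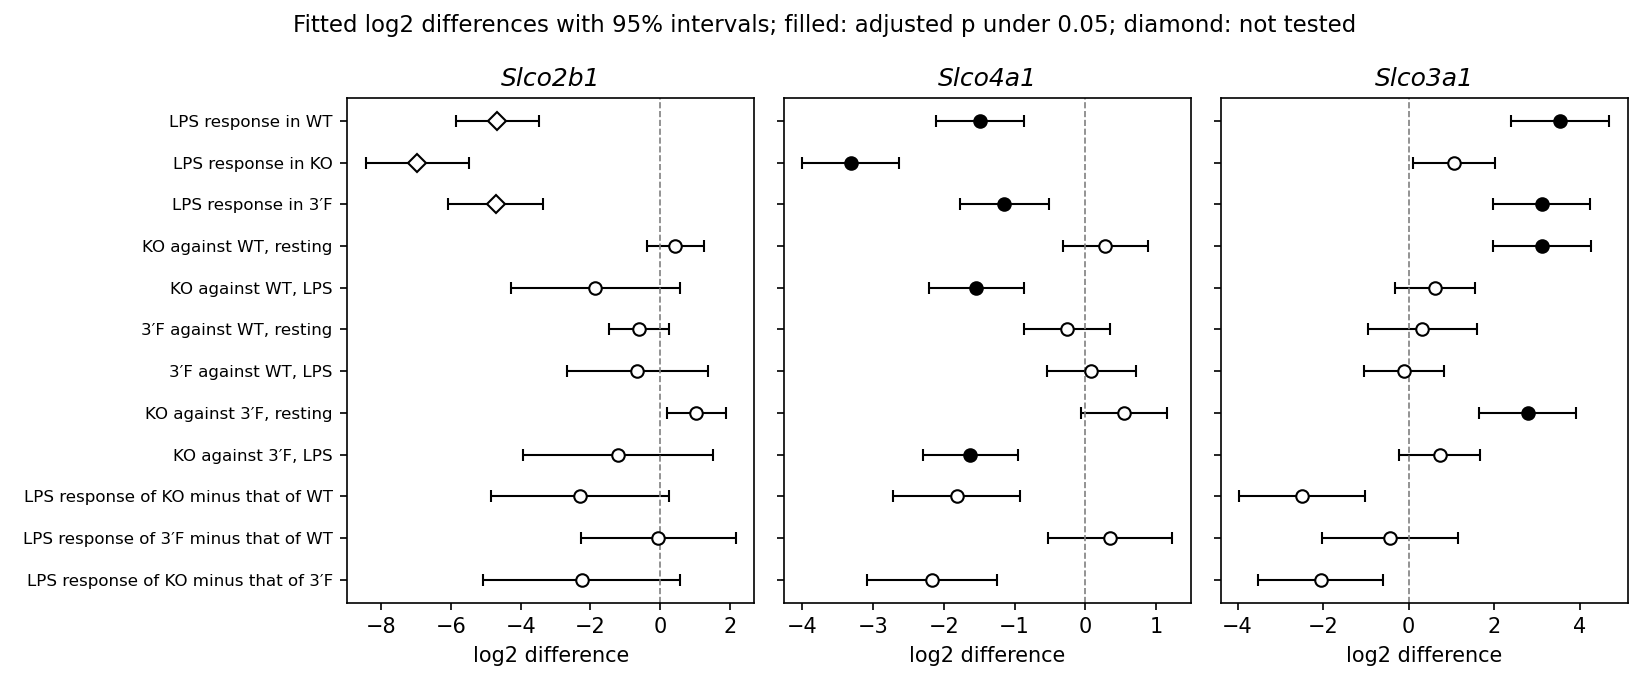
Fitted log2 differences of Slco2b1, Slco4a1 and Slco3a1 in the 12 comparisons, with 95% intervals. Filled circles had an adjusted p under 0.05, open circles did not, and the diamonds mark the LPS responses of Slco2b1, which were not tested. Slco4a1 is lower with LPS in each genotype and lower in KO than in WT or 3′F with LPS.

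The difference of the LPS response between genotypes was tested directly. For Slco4a1 the response of KO minus that of WT was −1.82 ± 0.43 on the log2 scale, with an unadjusted p of 0.000569 and an adjusted p of 0.482. Against 3′F it was −2.16 ± 0.43, with an unadjusted p of 0.000118 and an adjusted p of 0.188. With the filter on low counts edgeR called no member in these tests, where 0.00881% of genes were called for KO against WT, 0% for 3′F against WT and 0.0176% for KO against 3′F. For 3′F against WT, 203 genes had an unadjusted p under 0.05, and DESeq2 and limma-voom called 0. For Slco4a1, DESeq2 gave an adjusted p of 0.0248 and limma-voom with quality weights one of 0.0384 for KO against WT, in a range from 0.0248 to 0.85 over 20 alternatives. For KO against 3′F they gave 0.0016 and 0.0066, in a range from 0.0016 to 0.568, and edgeR with no filter on low counts gave 0.0197. For Slco3a1 the response of KO minus that of WT was −2.49 ± 0.70 (adjusted p = 0.507), and that of Slco2b1 differed by −2.30 with an interval of −4.86 to 0.26. Against 3′F the response of KO differed by −2.06 ± 0.69 for Slco3a1, with an unadjusted p of 0.00895 and an adjusted p of 0.443. For Slco2b1 it differed by −2.25 with an interval of −5.09 to 0.58.

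Genes around these carriers were counted in lists chosen with earlier results known. In the LPS response in WT, 9 of 17 tested genes for prostaglandin handling were called, 5 higher and 4 lower, beside 28.5% of all genes, 16.3% higher and 12.3% lower. The median log2 difference was 0.11, and 0.02 over all genes. Ptges, the inducible prostaglandin E synthase, rose by 5.46 and Ptger4, a receptor for prostaglandin E2, by 1.89. Ptgir, the prostacyclin receptor, rose by 1.33 and Pla2g4a, the phospholipase that frees arachidonate, by 0.63. Hpgd, which inactivates prostaglandins after uptake, fell by 3.48, Hpgds, a prostaglandin D synthase, by 1.31, Ptgs1 by 1.27 and Ptgr2 by 0.76. The list gave 6 higher and 5 lower in KO, beside 26.9% of all genes called, and 5 higher and 6 lower in 3′F, beside 31.2%.

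Of 11 genes for thyroid hormone entry and action, 3 were called higher and 3 lower in WT with LPS, beside the 16.3% and 12.3% of all genes, with a median of 0.08. The amino acid and thyroid hormone carriers Slc7a8 and Slc16a10 rose by 1.35 and 1.20 and Slc3a2, the partner chain of Slc7a8, by 0.96. Dio2, which makes the active hormone T3 from thyroxine, fell by 0.84, Rxra by 0.56 and Rxrb by 0.36. In KO 2 were called higher and 2 lower, beside 14.3% and 12.6% of all genes, and in 3′F 4 higher and 3 lower, beside 17.2% and 14%.

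Of 8 genes for steroid sulfate, bilirubin or bile acid handling, 4 were called higher and 1 lower in WT, beside 16.3% and 12.3% of all genes, with a median of 0.18. Hmox1, which opens haem to biliverdin, rose by 2.14, Blvrb by 1.10 and Hsd17b12 by 0.65, while Blvra fell by 0.36. Ugt1a7c rose by 0.46 but shares exons with the other Ugt1a genes, so its count is uncertain. The list gave 4 higher and 0 lower in KO, where 26.9% of all genes were called, and 3 higher and 1 lower in 3′F, where 31.2% were. Of 15 other organic anion and drug transporters, 4 were called higher and 1 lower in WT, a share near the 28.5% of all genes, with a median of 0.01. Slc15a3, a peptide carrier of endolysosomes, rose by 2.14, the efflux pump Abcc5 by 1.63, Slc22a4 by 0.66 and Abcc1 by 0.66, and Abcc3 fell by 0.85. In KO 2 were higher and 4 lower, beside 26.9% of all genes, and in 3′F 4 higher and 3 lower, beside 31.2%.

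The genes most like each member over the 18 libraries, by Pearson's r of log2 CPM, are given as a description. Differences between groups, such as that between resting and LPS, enter this r. For Slco2b1 they were St6gal1 at 0.97, Arl4c at 0.97 and Smad7 at 0.96, and within groups, after group means were removed, r was 0.65, 0.32 and 0.50. For Slco3a1 they were the interferon-inducible genes Ifi208 at 0.99, Irf9 at 0.99 and Ifi47 at 0.99, with 0.97, 0.90 and 0.92 within groups. For Slco4a1 they were E2f2 at 0.96, Bmf at 0.94 and Ltc4s at 0.94, with 0.65, 0.69 and 0.36 within groups. Slco3a1 kept its likeness to these genes inside groups, where resting KO replicate 3 is 1 of the points. Slco2b1 and Slco4a1 had an r of 0.88 over all libraries and 0.22 within groups.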

How the data were processed

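The deposited table holds raw counts per protein-coding gene, made by the authors from rRNA-depleted directional libraries. Per the labels and the study's methods, reads were trimmed with cutadapt 1.8.3, aligned to mm10 with HISAT2 2.1.0 and counted on strand over Gencode M15 genes with featureCounts 1.5.3. A gene length column was deposited beside them.

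Counts were filtered with filterByExpr, which kept 11357 genes, TMM scaled (factors 0.812 to 1.15) and fitted with edgeR 4.0.16 quasi-likelihood in R 4.3.3, with all 18 libraries and 1 coefficient per group. P values were two-sided and adjusted by Benjamini-Hochberg over all genes, called under 0.05, and measure the spread between these cultures. Standard errors are the coefficient divided by the square root of F. Intervals are 95%. A test of Slco2b1 with LPS in KO and 3′F was planned and is not reported, since such falls chose the gene. One marker list is not reported here. The members and lists were chosen with earlier results of these data known. Members were named, with up to 4 called genes each way per list by size in WT, other SLCO genes past the filter and the 3 most correlated genes. Alternatives were RLE scaling, plain totals for levels, 2 other filters, DESeq2 1.42.0, limma-voom (limma 3.58.1) with quality weights, the compared groups alone, a replicate block and leaving out libraries. The exclusion of 2 resting libraries together was chosen after seeing the data. The labels name 3 mice per genotype and the columns share letters across states, from which same-numbered resting and LPS cultures were taken as paired. Deviations of these paired cultures correlated at 0.04 to 0.30, with 5 of 9 above 0.1. The main fit did not use the pairing. The replicate block fitted each pair for the LPS responses and their differences. For comparisons between genotypes the block was the replicate number, shared by different mice. The procedure was tested on simulated data. Gene positions, 3′ UTRs and overlaps came from Gencode M21 on the same build.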

Additional observations from a re-analysis of the deposited data

How the results depend on the processing

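Leaving out 1 library at a time gave these log2 ranges: Slco2b1 in resting KO against WT −0.012 to 0.81 and against 3′F 0.59 to 1.41, Slco2b1 response of 3′F minus WT −1.17 to 0.33, Slco3a1 in 3′F against WT with LPS −0.36 to 0.29, Slco3a1 response in KO 0.66 to 2.17, Slco4a1 with LPS in 3′F against WT −0.15 to 0.31, in KO against 3′F −1.95 to −1.38 and in KO against WT −1.87 to −1.30, and Slco4a1 response in 3′F −1.38 to −0.92. With only the groups compared, Slco3a1 was not called in resting KO against WT (3.10) or against 3′F (2.79) and was called in KO against 3′F with LPS (0.70). With the replicate block Slco3a1 was called in KO with LPS (1.43), and its difference in 3′F against WT with LPS turned to 0.0047; the block changed no other call. Limma-voom with quality weights turned that difference to 0.011 and called Slco3a1 for the response in KO (2.14) and, with LPS, KO against WT (0.69) and against 3′F (0.68), Slco2b1 (1.12) and Slco4a1 (0.82) in resting KO against 3′F, and Slco4a1 for the KO response minus WT (−1.69) and minus 3′F (−2.34). DESeq2 called the last 2 also (−1.83 and −2.17), and no filter called the second (−2.23). Without resting KO replicate 3 and resting 3′F replicate 3, chosen after seeing the data, Slco3a1 was called for the KO response (2.10) and Slco2b1 in resting KO against 3′F (1.33). Calls of Slco2b1 use libraries of the LPS responses that chose it and are a description. Over all genes the number called moved by over 1.5 times in many fits. Resting KO against 3′F gave 1464 and 10 with only the groups compared, resting KO against WT 1067 and 380, KO against WT with LPS 544 and 1040, and KO against 3′F with LPS 441 and 1665. Limma-voom gave 5218, 6073 and 5478 for LPS in WT, KO and 3′F against 3240, 3059 and 3546, and 57 and 118 for the 2 KO responses against 1 and 2, for which DESeq2 gave 15 and 28. Leaving out 1 library gave 185 to 423 for KO against WT with LPS, 142 to 312 for KO against 3′F with LPS, both lowest without KO LPS replicate 2, 401 to 1047 for resting KO against WT, lowest without WT replicate 2, 735 to 1818 for resting KO against 3′F, lowest without 3′F replicate 3, and 0 to 4 and 0 to 3 for the 2 KO responses. Without both resting libraries named above, LPS in KO gave 5036, KO against WT 1669 at rest and 1617 with LPS, KO against 3′F 745 and 1389, and the 2 KO responses 33 and 6. Causes were not tested. RLE scaling changed no call of a member. Plain total counts moved Slco2b1 in resting WT to 8.36 CPM and Slco3a1 in KO with LPS to 38.6 CPM. The counts of Slco2b1 with LPS and of Slco2a1 are near the floor of 3, and depth limits them.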

Other observations

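Dio2, the enzyme that makes the active thyroid hormone T3, was lower in KO than in WT in both states, by a log2 difference of −1.48 ± 0.23 (SE) at rest with an adjusted p of 0.00165 and of −1.74 ± 0.24 with LPS with an adjusted p of 0.000801. Against 3′F the differences were −1.46 with an adjusted p of 0.00218 at rest and −1.69 with an adjusted p of 0.0012 with LPS. Of 11 genes for thyroid hormone entry and action, 2 were called higher and 1 lower in resting KO than in WT, beside 9.4% of all genes. Slc7a8 was higher in resting KO than in WT by 0.81 and than in 3′F by 0.96, with adjusted p values of 0.0462 and 0.0199. Slc3a2, its partner chain, was higher by 0.62 and 0.67, with adjusted p values of 0.0326 and 0.0201. With LPS the differences of Slc7a8 were 0.091 and −0.051, with adjusted p values of 0.9 and 0.952. Of 15 other organic anion and drug transporters, 2 were called higher and 2 lower in resting KO than in WT, beside 9.4% of all genes. With LPS 0 were called higher and 2 lower, beside 4.79%. The efflux pump Abcb1b was lower in KO than in WT by 0.77 at rest and 0.85 with LPS, with adjusted p values of 0.0258 and 0.0261. Against 3′F its differences were −0.71 at rest, with an adjusted p of 0.0332, and −0.44 with LPS, with an adjusted p of 0.291. Abcc5, another efflux pump, went the other way in resting KO, higher by 0.53 than in WT and by 0.59 than in 3′F. The adjusted p values of Abcc5 were 0.0103 and 0.00754. Values of these genes in the alternative fits are not given. With only the groups compared, the genes called in resting KO went from 1067 to 380 against WT and from 1464 to 10 against 3′F. Calls in this section, most of all those near 0.05, may therefore depend on the main fit.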
